A study of Mus musculus with 5 samples.

Results

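The genes described here are the classical and other cadherins with a numbered Cdh symbol, without Cdh1 and Cdh5, and the non-clustered protocadherins with a numbered Pcdh symbol. Of 21631 protein-coding RefSeq genes on chromosomes 1 to 19 and X, 32 met this rule. Peaks of 5 ATAC-seq libraries that shared at least 1 bp were merged into 86713 regions, and 449 of these lay in, or within 100 kb of, the body of 1 of the 32 genes. Each gene but Cdh9 had at least 1 such region. The neighbours Pcdh1 and Pcdh12 shared 13 regions, so the regions made 462 pairs of region and gene. The rule uses gene symbols and positions.

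ATAC-seq cuts open chromatin with a transposase, and a peak marks a stretch that is cut more often than the library's background. The mutant embryos, PrxCre/+;Smarcc1c/c, gave 3 libraries. Control embryos, Prx+/+;Smarcc1c/c, gave 2 libraries and carried the same conditional Smarcc1 allele on both chromosomes, without the Cre transgene. Every library came from 50000 cells of the anterior forelimb pair of a single genotyped mouse embryo at E11.5, with 40 to 48 somites. The Smarcc1 product, BAF155, is part of the core of BAF, a complex that moves nucleosomes, and the series asks about BAF in GLI repression. Prx1-driven Cre acts in limb mesenchyme, so ectoderm, endothelium, migrating muscle precursors, nerve and blood of a mutant limb are expected to keep the gene. Its paralog Smarcc2 was not targeted. Peaks do not measure the deletion itself, and it was not analysed here.

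Cadherins are calcium-dependent adhesion receptors that bind cadherins on the next cell and, in the classical types, hold the actin cytoskeleton through catenins. The set of cadherins on a cell helps to decide which neighbours it sticks to. In the limb bud they take part in the packing of mesenchyme before cartilage forms, and many members are best known from brain wiring. Non-clustered protocadherins adhere more weakly and act in cell sorting, migration and synapse formation.

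The deposited lists held 36722, 42804 and 27208 peaks in mutants 1, 2 and 3, against 68975 and 60349 peaks in controls 1 and 2. The lowest fold over background that was called a peak was 2.47, 2.46 and 2.52 in the mutants and 2.43 and 2.29 in the controls. A region without a peak may therefore still be open below that level. All such folds are the authors' values, made within a library and not scaled between libraries. They are given as descriptions, and no change in fold was tested. In whole limb tissue, a region open in fewer cells and a region less open in each cell cannot be told apart. Gene ends of 6 limb mesenchyme markers, among them Prrx1 and Tbx5, held peaks at 6, 6 and 4 genes in the mutants and at 6 and 6 genes in the controls. Of 6 muscle precursor markers 4, 5 and 1 had a peak in the mutants and 6 and 5 in the controls. For 6 neural crest and glial markers these numbers were 5, 6 and 4 in the mutants and 6 and 5 in the controls. Ectoderm markers had peaks at 3, 3 and 3 of 6 genes in the mutants and 4 and 5 in the controls. Endothelial markers had peaks at 1, 1 and 1 of 6 genes in the mutants and 3 and 1 in the controls, and Cdh5, Pecam1 and Emcn had none in any library. One blood marker of 6 had a peak in each library. The part of these cell types in the results was not tested.

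Start sequences show how unlike the members are at the place where transcription begins. RefSeq promoters of build GRCm38.p6, each running from 250 bases before to 50 bases after a start, matched 22 of the 32 members, with 25 starts. Capitals mark CG dinucleotides. Cdh22 (chr2:165234688-165234987, minus strand) and Pcdh20 (chr14:88471347-88471646, minus strand) are shown as the starts with the most and the fewest CG among those with a peak in all 5 libraries. Cdh7 is shown with an upstream start that had a peak in 4 libraries (chr1:109983052-109983351, plus strand) and a downstream start that had none (chr1:109983473-109983772, plus strand). Cdh9 (chr15:16728665-16728964, plus strand) and Cdh10 (chr15:18820079-18820378, plus strand) are shown as starts without a peak in any library.
Cdh22 start: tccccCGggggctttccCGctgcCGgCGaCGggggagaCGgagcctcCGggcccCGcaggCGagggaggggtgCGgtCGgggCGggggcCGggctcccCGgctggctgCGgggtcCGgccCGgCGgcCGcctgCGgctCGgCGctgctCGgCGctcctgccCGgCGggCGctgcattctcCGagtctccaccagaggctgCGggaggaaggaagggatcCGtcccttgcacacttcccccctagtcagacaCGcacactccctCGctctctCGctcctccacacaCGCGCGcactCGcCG
Pcdh20 start: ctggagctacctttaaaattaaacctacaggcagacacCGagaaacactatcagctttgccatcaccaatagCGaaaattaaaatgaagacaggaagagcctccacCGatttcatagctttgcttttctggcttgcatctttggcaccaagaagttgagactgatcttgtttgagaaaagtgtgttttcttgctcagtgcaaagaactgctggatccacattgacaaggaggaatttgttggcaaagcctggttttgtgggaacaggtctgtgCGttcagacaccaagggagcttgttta
Cdh7 upstream start: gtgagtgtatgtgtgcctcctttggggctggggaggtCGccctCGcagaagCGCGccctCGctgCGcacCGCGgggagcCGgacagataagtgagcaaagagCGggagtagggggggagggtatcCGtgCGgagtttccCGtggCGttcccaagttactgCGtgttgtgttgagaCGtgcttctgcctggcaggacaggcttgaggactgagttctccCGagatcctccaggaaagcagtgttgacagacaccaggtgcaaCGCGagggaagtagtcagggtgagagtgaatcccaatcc
Cdh7 downstream start: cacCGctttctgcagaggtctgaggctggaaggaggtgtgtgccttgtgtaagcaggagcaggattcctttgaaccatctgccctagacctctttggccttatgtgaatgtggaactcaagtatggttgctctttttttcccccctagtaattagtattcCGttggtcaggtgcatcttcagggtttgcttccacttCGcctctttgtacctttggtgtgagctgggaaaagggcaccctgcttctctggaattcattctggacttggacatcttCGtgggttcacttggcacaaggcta
Cdh9 start: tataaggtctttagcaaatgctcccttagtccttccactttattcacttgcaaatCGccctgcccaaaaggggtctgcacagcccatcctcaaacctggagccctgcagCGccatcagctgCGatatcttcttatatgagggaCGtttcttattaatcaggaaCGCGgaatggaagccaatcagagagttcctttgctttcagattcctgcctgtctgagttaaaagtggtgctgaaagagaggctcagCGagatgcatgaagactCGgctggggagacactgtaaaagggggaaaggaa
Cdh10 start: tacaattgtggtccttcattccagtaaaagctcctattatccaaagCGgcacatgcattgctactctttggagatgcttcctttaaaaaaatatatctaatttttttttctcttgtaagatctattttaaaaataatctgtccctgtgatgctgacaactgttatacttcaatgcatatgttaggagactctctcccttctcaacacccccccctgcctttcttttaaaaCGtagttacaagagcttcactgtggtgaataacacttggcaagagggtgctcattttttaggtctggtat

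The Cdh22 start held 38 CG dinucleotides and the Pcdh20 start held 4. The upstream Cdh7 start held 19 and the downstream one 4, with 8 in Cdh9 and 2 in Cdh10. Among the members, the 16 starts with a peak in all 5 libraries had a median of 18 CG (range 4 to 38), and the 5 starts with no peak had a median of 4 (range 2 to 8). Over all protein-coding starts the medians were 22 for starts with a peak in all 5 libraries and 3 for starts with none. The members thus lay close to other genes in this respect, and Pcdh20 had the fewest CG of the member starts with a peak in all 5. The E-box CANNTG, which reads the same on both strands and contains CAGGTG as a special case, occurred in 7 of the 16 starts with peaks in all libraries (43.75%), against 60.8% of all such starts. Its form CAGGTG, searched on both strands, occurred in 5 of the 25 member starts (20%) and 19.9% of all starts. These 5 were all the Cdh7 starts, which lie close together, and those of Pcdh7 and Pcdh15. TATAAA occurred in 2 of the 25 (8%) and 12.7% of all starts on either strand. TGANTCA, the AP-1 motif, occurred in no member start and in 7.04% of all starts. A match is a description of the letters alone.

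**Figure D1:**
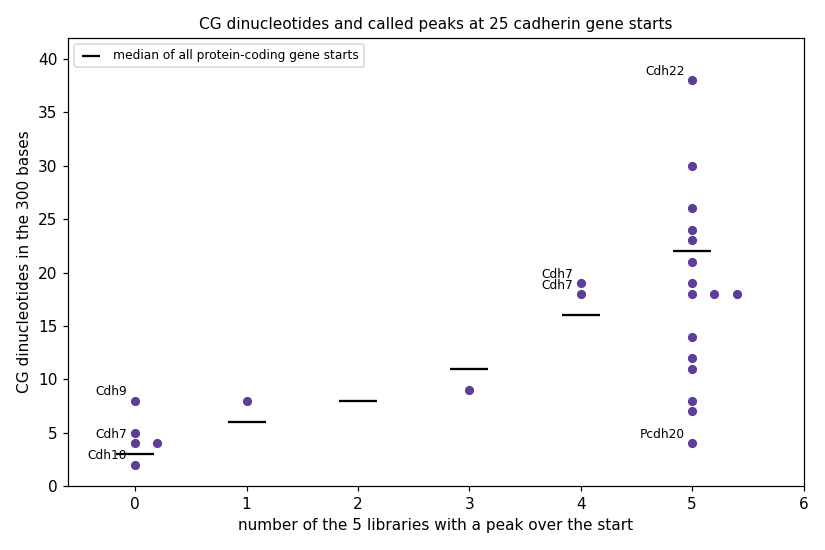
Number of CG dinucleotides in the 300 bases at each of 25 member starts (vertical axis) against the number of the 5 libraries with a peak over that start (horizontal axis). Points are starts, moved sideways where equal, and black bars are the medians of all protein-coding starts; the 16 member starts with a peak in all 5 libraries spread from 4 to 38.

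Mutant limbs had fewer called regions around cadherin genes than control limbs. Mutants 1, 2 and 3 held peaks in 149, 180 and 107 of the 449 regions, and controls 1 and 2 in 341 and 281. The groups did not overlap. The mean was 145.3 ± 36.6 regions in mutants (SD, n = 3) and 311 ± 42.4 in controls (SD, n = 2), or 53.3% lower in mutants. An exact two-sided permutation test over the 5 libraries gave p = 0.2. The test doubled the smaller tail, and 0.2 is the smallest value it can give for 3 against 2 libraries. The whole lists moved in the same way, with 32398, 38839 and 23634 regions in the mutants and 65278 and 56368 in the controls, 48.0% lower in mutants. When each list was shortened to its 27194 strongest peaks, 109, 122 and 108 member regions held a peak in the mutants and 134 and 130 in the controls, a smaller difference of −19 regions.

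Regions near the 32 genes made up a slightly smaller part of each mutant list. They were 0.460%, 0.463% and 0.453% of all regions in the mutants and 0.522% and 0.499% in the controls. The difference of means was −0.052 percentage points (0.459 ± 0.005% in mutants, n = 3, and 0.510 ± 0.017% in controls, n = 2), and the exact permutation p was again 0.2. Without the regions of Cdh4, the member with the most regions, the difference was −0.027 points. Where regions within 1 kb of either end of any protein-coding gene (gene-end regions) were taken alone, the member share was 0.430%, 0.399% and 0.439% in mutants and 0.429% and 0.445% in controls. The groups overlapped there, with an exact permutation p of 0.6.

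Numbers at gene ends differed less than numbers elsewhere, as they did over the whole lists. Member gene-end regions with a peak numbered 58, 59 and 52 in the mutants and 67 and 67 in the controls, 15.9% lower in mutants (12.8% lower over all gene-end regions). Away from gene ends, in regions called distal here, the numbers were 91, 121 and 55 in mutants and 274 and 214 in controls, 63.5% lower in mutants (59.9% lower over all distal regions). Both sets of numbers separated the genotypes, each with an exact permutation p of 0.2.

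**Figure D2:**
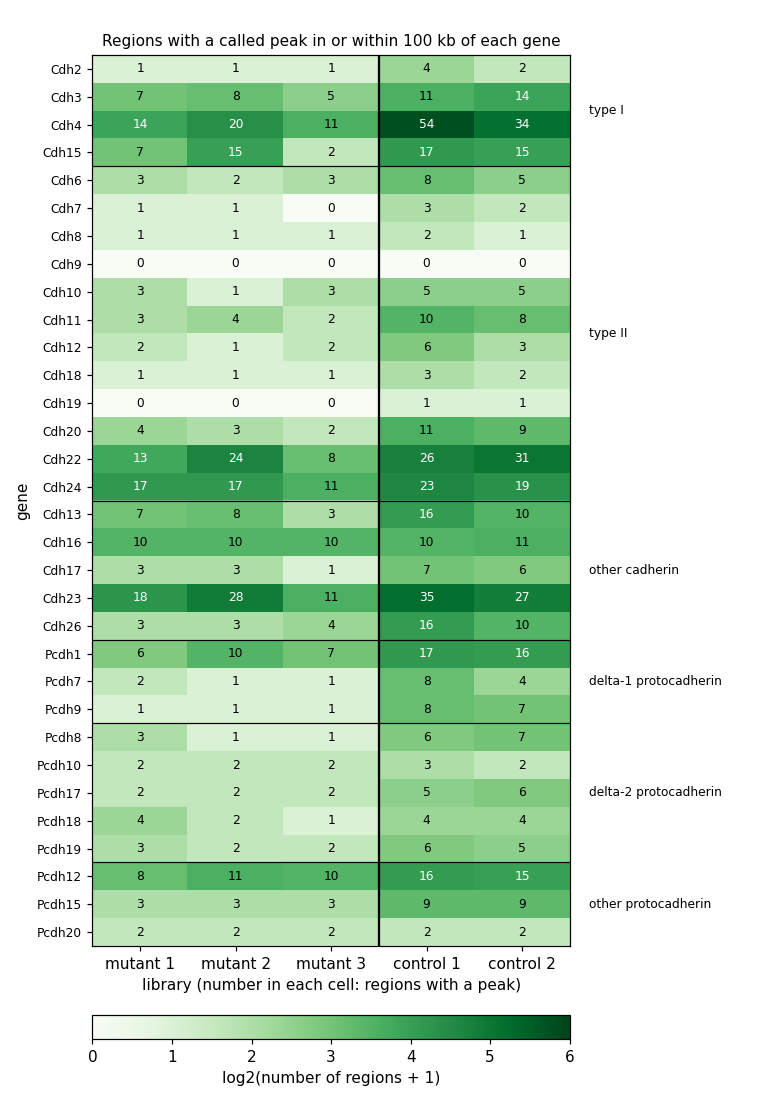
Number of regions with a called peak in or within 100 kb of each gene (rows, by role) in each library (columns), with shade on a log2(number + 1) scale. Mutant libraries are left of the black line and control libraries right of it; Cdh4 had 14, 20 and 11 regions in the mutants and 54 and 34 in the controls.

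Gene by gene, 24 of the 32 members had fewer regions in every mutant than in either control. Over all 19485 genes with a region in any library, 48.8% did so, whereas the 32 include Cdh9, which had none. These shares were not matched for regions per gene. Of the members, 17 had at least 5 regions of both controls, as did 14068 of all 21631 genes. In 1 member, Cdh23, a mutant library exceeded a control, with 18, 28 and 11 regions in the mutants and 35 and 27 in the controls.

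Of the 449 regions, 224 had a peak in both controls, and these are the base of the counts that follow. In all 3 mutants 75 of the 224 had no peak (33.5%; 30.4% of all 45158 regions of both controls). Another 93 kept a peak in all 3 mutants (41.5%; 43.4% over all regions), and 56 had one in some mutants. These shares are near those of all regions. Among the 41194 regions of both controls within 100 kb of any protein-coding gene, 27.3% were absent and 46.1% were kept. In the shortened lists 22 of 114 were absent (19.3%; 13.4% of all regions). With control 2 left out, so that a peak in control 1 sufficed, the share absent was 53.2% (47.8% of all regions). No region had a peak in all mutants and in no control, which 0.0484% of all 86713 regions had. Another 174 regions had a peak in 1 control alone, and 152 of these had none in any mutant (87.4%; 82.9% over all regions). Mutant libraries alone held peaks in 51 of the 449 regions (11.4%; 11.8% over all regions), 33 of them in mutant 2 only (8.03% of all regions were in mutant 2 only). These shares, too, are near those of all regions.

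Strong regions were kept more often than weak ones. Strength is the mean percentile of the fold within the 2 control lists, cut into 10 equal classes over all regions of both controls. Among distal member regions, 21 of 31 in the lowest 2 classes were absent from all mutants (67.7%; 65.8% of all distal regions in those classes). In the highest 2 classes 2 of 14 were absent (14.3%; 1.80% of all). The 2 were the Cdh11 and Pcdh8 flank regions described below. A share for regions of like strength is given in what follows as the share absent among all regions of the same class, gene-end or distal, and the same strength class.

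Start and gene-end regions were mostly kept. At the ends of the members themselves, 2 of 31 regions of both controls were absent from all mutants (6.45%; 4.64% of all gene-end regions). Another 23 were kept in all (74.2%; 81.3% of all gene-end regions). Over all member gene-end regions, ends of neighbouring genes included, 5 of 64 were absent (7.81%; 4.64% of all gene-end regions, and 7.5% for like strength). Of the 22 members with a RefSeq start, 15 had a peak over it in all 5 libraries. Counted by start, 16 of 25 member starts (64%) and 55.1% of all protein-coding starts had a peak in all 5. For 10 members without a start sequence (Cdh2, Cdh3, Cdh4, Cdh11, Cdh13, Cdh16, Cdh17, Cdh19, Pcdh1 and Pcdh12), the stronger region at a gene end was used, and 6 of them had one with a peak in all 5 libraries. No like share over all genes was taken for these 10. Of the 19 member starts with a peak in both controls, 16 (84.2%) kept it in all mutants, and 90.3% of all such starts did so.

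**Figure D3:**
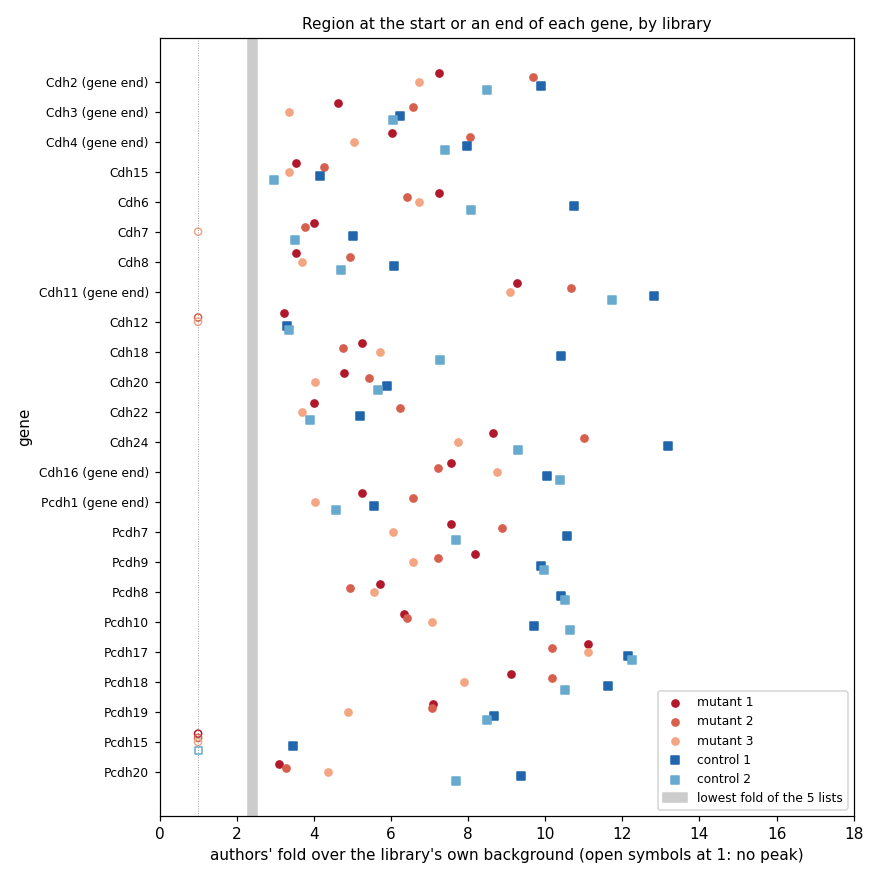
Authors' fold over background (horizontal axis) at the region over the start of each gene, or at a gene end where so named, for 24 genes with such a region (rows). Circles are mutant and squares control libraries, open symbols at 1 mean no peak, and the grey band spans the lowest folds called; the folds are not scaled between libraries.

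Distal regions differed by place. Where a member was the nearest gene, 62 of 116 distal regions of both controls were absent from all mutants, or 53.4% (42% of all distal regions, and 40.7% for like strength). Peaks remained in 32.8%, 38.8% and 23.3% of the 116 in mutants 1, 2 and 3, against 47.3%, 47.2% and 32.5% of all distal regions in the same mutants. The difference was −10.7 ± 3.3 percentage points (SD over 3 mutants). Without Cdh4, 49 of 93 (52.7%) were absent. The 116 regions lay around 26 genes, many with 1 to 3 such regions.

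Where another gene was nearer, 8 of 44 distal regions were absent (18.2%; 36.0% for like strength). The 44 lay around 13 members. Neighbours' distal regions in the window were thus less often absent, and this difference was not tested.

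Inside gene bodies the share was close to that of long genes in general. The members had a median length of 126 kb against 17.3 kb for all protein-coding genes, and 18 of the 32 were at least 100 kb long. In the bodies of such long members 40 of 78 distal regions were absent (51.3%), near the 50.5% of distal regions in the bodies of all long protein-coding genes. Regions outside gene bodies had no such matched set. Of 29 flank regions with a member as the nearest gene, 16 were absent (55.2%; 35.8% for like strength), and 36.9% of the 10961 distal regions outside every gene body and within 100 kb of a gene were. The 16 lay around 12 genes, and no test of this difference was made. The 10961 regions were not matched for the density of genes or regions around them, so the difference cannot be called particular to cadherin genes.

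**Figure D4:**
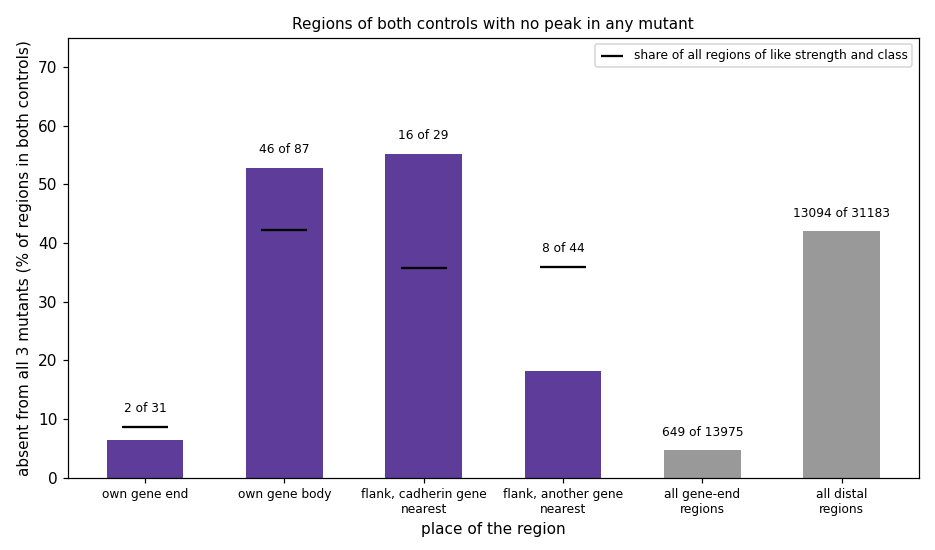
Share of regions of both controls that had no peak in any of the 3 mutants (vertical axis, percent), by place, for regions of the 32 genes (purple) and all regions (grey). Black dashes give the share among all regions of like strength and class; 16 of 29 flank regions with a cadherin gene nearest were absent, and 8 of 44 with another gene nearest.

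Most members had fewer regions per Mb than the median gene. The members' median was 15.0 regions of both controls per Mb of gene and flank, against 27.1 for all protein-coding genes, and 23 of 32 lay below that median. Gene length was not matched here, and single members ranged from 0 per Mb in Cdh9 to 85.4 in Cdh24. Type II cadherins had a median of 8.5 per Mb, type I cadherins 39.6 and delta-1 protocadherins 4.86.

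Type I classical cadherins, which carry strong adhesion between like cells, had 50 regions of both controls. Of these, 19 were absent from all mutants (38.0%; 36.3% for like strength) and 14 were kept in all. Cdh4, or R-cadherin (chr2:179442423-179899377), known from retina and muscle, held 28 of the 50, of which 14 were absent, 6 were kept and 8 had a peak in some mutants. The strongest absent region lay in its body at chr2:179792281-179793328, with folds of 6.94 and 4.31 in the controls. A body region at chr2:179732539-179734034 had folds of 5.55, 4.27 and 3.36 in the mutants and 10.1 and 7.28 in the controls, so it was called in all libraries. At chr2:179521630-179523079 only mutant 1 had a peak, at a fold of 3.24, and the controls had 9.36 and 5.66. The Cdh4 gene end had folds of 6.02, 8.05 and 5.05 in the mutants and 7.98 and 7.41 in the controls, which overlap. Its strongest region, at the end of the neighbour Taf4, was kept, with 7.71, 9.20 and 6.39 in the mutants and 11.4 and 9.30 in the controls.

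Cdh2, or N-cadherin, the main cadherin of condensing limb mesenchyme, had only 2 regions of both controls. Its gene end was kept, with folds of 7.25, 9.69 and 6.73 in the mutants and 9.88 and 8.49 in the controls, which overlap. The other region, in its body at chr18:16689468-16690029, had folds of 4.85 and 4.45 in the controls and no peak in any mutant. Cdh3, or P-cadherin, an epithelial member, had 9 such regions, with 2 absent and 5 kept, and 6 of 14 or 5 of 12 absent without control 1 or control 2. In its body the strongest absent region, at chr8:106548204-106548756, had 4.85 and 4.18 in the controls. The strongest region of its window lay at the neighbour Zfp90. The folds there were 9.87, 11.2 and 5.72 in the mutants and 11.6 and 10.6 in the controls, which overlap. The Cdh3 gene end had folds of 4.63, 6.57 and 3.36 in the mutants and 6.24 and 6.06 in the controls, which also overlap. Cdh15, or M-cadherin, known from muscle, had 11, with 2 absent, 2 kept and 7 in some mutants. Only 4 of the 11, among them the 2 absent ones, had Cdh15 as the nearest gene. Without mutant 2, 6 of 11 were absent, and 6 of 16 and 9 of 18 were without control 1 or control 2. Its start had folds of 3.55, 4.27 and 3.36 in the mutants and 4.16 and 2.96 in the controls, with overlap between the groups. The strongest absent region, 2.69 kb above the gene, had 3.12 and 3.77 in the controls. The strongest region of the Cdh15 window lay in the neighbour Acsf3. It had a fold of 2.62 in mutant 1, no peak in mutants 2 and 3, and 5.72 and 4.45 in the controls. Regions around Cdh15 numbered 7, 15 and 2 in the mutants and 17 and 15 in the controls. Muscle precursor markers were also low in mutant 3, with 1 of 6, and their part in this result was not tested.

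Type II classical cadherins, mostly studied in the nervous system, had 72 regions of both controls, with 20 absent from all mutants (27.8%; 29.0% for like strength) and 28 kept in all. Cdh11 (chr8:102632095-102785493), a cadherin of loose mesenchyme and osteoblasts, had 7 of these, with 3 absent, 2 kept and 2 in some mutants. Without mutant 2, 5 of the 7 were absent. The strongest absent region of all members lay 77.8 kb below the gene's lower-coordinate end, at chr8:102553151-102554268. Its folds were 8.67 and 7.55 in the controls, and no mutant had a peak there. At the Cdh11 gene end a region of 4618 bp was called in all libraries, with folds of 9.26, 10.7 and 9.08 in the mutants and 12.8 and 11.7 in the controls. A body region close to that end, at chr8:102780728-102781387, was also kept. Its folds were 5.25, 6.41 and 3.53 in the mutants and 6.94 and 4.99 in the controls, which overlap. Cdh11 thus kept peaks at and near its gene end, and the far flank peak was seen in the controls alone.

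Cdh10, a brain cadherin, had no peak over its start and 5 regions of both controls, of which 2 were absent. At its lower-coordinate gene end, chr15:18818403-18819127, a region had folds of 3.39 and 3.53 in mutants 1 and 3, no peak in mutant 2, and 4.68 and 4.72 in the controls. A flank region 16.6 kb above the gene, at chr15:19032768-19033730, kept peaks with folds of 3.39, 3.12 and 3.70 in the mutants and 9.71 and 8.62 in the controls. The absent body region at chr15:18844655-18845373 had 5.03 and 4.18 in the controls. Cdh20, a neural cadherin, had 8 regions, with 4 absent. A region 93.0 kb above Cdh20 was kept, with folds of 6.63, 3.61 and 4.71 in the mutants and 10.8 and 10.5 in the controls. A weaker region at 88.0 kb, on the same side, was absent, with 3.64 and 4.45 in the controls. The start of Cdh20 had folds of 4.78, 5.42 and 4.04 in the mutants and 5.90 and 5.66 in the controls.

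Cdh18, a brain cadherin, has its annotated start inside the gene body, away from both gene ends. Cdh18 kept the start region, with folds of 5.25, 4.76 and 5.72 in the mutants and 10.4 and 7.28 in the controls. Its other region of both controls, in the body at chr15:22577978-22578941, had folds of 7.98 and 5.93 in the controls and no peak in a mutant. Cdh19, a marker of Schwann cell precursors, had 1 region in all, 42.7 kb above the gene, with folds of 7.80 and 7.01 in the controls. No mutant had a peak there. Neural crest and glial markers had peaks at 5, 6 and 4 of 6 gene ends in the mutants and 6 and 5 in the controls, and their part in this result was not tested.

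Cdh6, first named from kidney, had 4 regions, with 2 absent and 2 kept. The Cdh6 start had folds of 7.25, 6.41 and 6.73 in the mutants and 10.8 and 8.08 in the controls. A body region of Cdh6, at chr15:13066276-13068832, was also kept, with 5.55, 5.58 and 6.39 in the mutants and 9.02 and 8.62 in the controls. Cdh7, known from neural crest in chick, had a start peak in mutants 1 and 2, with folds of 4.01 and 3.78. Mutant 3 had none, and the controls had 5.03 and 3.50, which overlap the mutant folds. The start of Cdh12 lies inside its body, away from both gene ends, and had folds of 3.29 and 3.37 in the controls. Cdh12 had a start peak with a fold of 3.24 in mutant 1 and none in the other mutants. None of its 3 regions of both controls was absent from all mutants, and 1 of 3 was without mutant 1 or mutant 3 and 3 of 6 without control 2. Cdh8 had 1 region of both controls (without control 2, 1 of 2 was absent). It lay over the start, with 3.55, 4.93 and 3.70 in the mutants and 6.07 and 4.72 in the controls, which overlap. Cdh7, Cdh8 and Cdh12 are all expressed in the nervous system, and of their start regions that of Cdh8 alone was called in all 5 libraries.

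Cdh22, a brain and pituitary cadherin, had 21 regions, with 3 absent, 7 kept and 11 in some mutants. The count rests on mutant 2: without it 10 of 21 were absent, and without control 1 or control 2 13 of 32 and 7 of 27 were. Around it 13, 24 and 8 regions had peaks in the mutants and 26 and 31 in the controls. The Cdh22 start had folds of 4.01, 6.24 and 3.70 in the mutants and 5.20 and 3.91 in the controls, which overlap. The strongest region of its window lay at the neighbour Elmo2 and was kept, with 8.33, 8.38 and 7.06 in the mutants and 12.3 and 11.7 in the controls. The strongest absent one, in the Cdh22 body, had 4.33 and 3.23 in the controls. Cdh24 had 18, with 3 absent and 11 kept. Without mutant 2, 6 of 18 were absent, and without control 2 7 of 23 were. The region at its start is also an end of Acin1, so the peak cannot be given to either gene. It had folds of 8.64, 11.0 and 7.74 in the mutants and 13.2 and 9.30 in the controls, which overlap. A stronger region, at another end of Acin1, had 11.0, 11.8 and 9.42 in the mutants and 11.3 and 12.4 in the controls, which overlap. The strongest absent region of the Cdh24 window lay in the neighbour Ajuba, with 4.16 and 3.91 in the controls. Cdh9, a synaptic cadherin in the mouse, had no peak within 100 kb in any library.

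The other cadherins, which lack the typical catenin-binding tail or differ from the classical form in other ways, had 50 regions of both controls. Of these, 13 were absent from all mutants (26.0%; 28.9% for like strength) and 27 were kept in all. Cdh13, or T-cadherin, a GPI-anchored receptor for adiponectin, had 9, with 4 absent and 3 kept, and 11 of 16 absent without control 2. Its absent body region at chr8:118845236-118846518 had folds of 7.28 and 6.87 in the controls. The strongest region of that window, at the neighbour Hsbp1, had 8.33, 8.38 and 7.40 in the mutants and 7.98 and 10.5 in the controls, which overlap. Neither end of Cdh13 had a peak in any library. Cdh23, a tip-link protein of inner ear hair cells, had 20, with 5 absent and 11 kept, and no peak at its start. Without control 2, 17 of 35 were absent. The strongest absent region of its window, 16.6 kb below the gene, lay in the neighbour Psap and had 5.20 and 3.64 in the controls. The strongest of all, at Slc29a3, was kept, with 8.18, 7.23 and 7.06 in the mutants and 12.1 and 9.03 in the controls.

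Cdh16, the kidney-specific cadherin, had 10 regions of both controls, with none absent and 9 kept, and 2 of 12 absent without control 1. Its gene end had folds of 7.56, 7.23 and 8.75 in the mutants and 10.1 and 10.4 in the controls. The window of Cdh16 is packed with other genes, and its strongest region lay 66.6 kb away at Car7 and Nae1, with 9.10, 9.53 and 8.41 in the mutants and 13.0 and 11.0 in the controls. Cdh17, or LI-cadherin, of liver and intestine, had 5, with 1 absent, 66.9 kb above the gene, at folds of 5.55 and 4.72 in the controls. Without mutant 1 or mutant 2, 2 of the 5 were absent, and 2 of 6 and 3 of 7 were without control 1 or control 2. Its strongest, at the neighbour Gem, was kept, with 6.33, 6.41 and 5.05 in the mutants and 8.84 and 8.49 in the controls. Cdh26, an epithelial cadherin, had 6, with 3 absent and 3 kept. A flank region 25.9 kb above Cdh26 was kept, with folds of 4.47, 4.43 and 3.87 in the mutants and 8.84 and 7.01 in the controls. The absent region farther out, at 93.2 kb, had folds of 5.03 and 4.45 in the controls. Cdh17 and Cdh26 had no peak at their own gene end or start in any library, and neither did Cdh13.

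Delta-1 protocadherins had 20 regions of both controls, with 9 absent from all mutants (45.0%; 33.0% for like strength) and 8 kept. Pcdh9 (chr14:93013700-93892834), a protocadherin of the nervous system, kept its start, with folds of 8.18, 7.23 and 6.56 in the mutants and 9.88 and 9.97 in the controls. All 3 other regions of both controls lay in its body and had no peak in a mutant. The strongest of them, at chr14:93498422-93499537, had folds of 7.98 and 6.47 in the controls. Around Pcdh9 each mutant had 1 region, against 8 and 7 in the controls.

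Pcdh7 had 3 regions, 1 of them absent. Without mutant 1, 2 of 3 were absent, and 2 of 4 and 6 of 8 were without control 1 or control 2. The Pcdh7 start region of 6428 bp had folds of 7.56, 8.87 and 6.06 in the mutants and 10.6 and 7.68 in the controls, which overlap. Pcdh1, an epithelial protocadherin best known from the airway, had 13, with 5 absent and 6 kept. Its strongest flank region, 39.8 kb below the gene, had folds of 6.94, 10.7 and 5.89 in the mutants and 12.8 and 12.4 in the controls. The Pcdh1 gene end had folds of 5.25, 6.57 and 4.04 in the mutants and 5.55 and 4.58 in the controls, which overlap. An absent flank region, at 87.5 kb, had 5.55 and 3.64 in the controls. Pcdh1 and its neighbour Pcdh12 share 13 regions, so their counts are not separate evidence.

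Delta-2 protocadherins, which signal to actin through a conserved tail and act in cell movement, had 19 regions of both controls. Of these, 9 were absent from all mutants (47.4%; 25.9% for like strength) and 8 were kept. All 5 members kept the region at their start. Pcdh17, a synaptic protocadherin, had start folds of 11.1, 10.2 and 11.1 in the mutants and 12.1 and 12.3 in the controls. A second region at its start side, at chr14:84445011-84448356, was kept too, with 4.47, 4.93 and 4.37 in the mutants and 5.90 and 4.99 in the controls. Of its 3 absent regions, the strongest lay 8.27 kb above the gene and had folds of 4.85 and 4.85 in the controls.

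Pcdh8, the protocadherin PAPC of paraxial mesoderm, had start folds of 5.71, 4.93 and 5.55 in the mutants and 10.4 and 10.5 in the controls. Its absent flank region 25.6 kb below the gene, at chr14:79740137-79741152, had folds of 9.54 and 6.33 in the controls. A region 17.9 kb above Pcdh8 had a peak in mutant 1, at a fold of 3.86, and 7.11 and 5.79 in the controls. Pcdh18 had start folds of 9.10, 10.2 and 7.91 in the mutants and 11.6 and 10.5 in the controls. It had 2 absent flank regions, at 50.1 and 83.4 kb above the gene. Pcdh10, or OL-protocadherin, had 2 regions of both controls, both kept, and 1 of 4 was absent without control 2. The Pcdh10 start had folds of 6.33, 6.41 and 7.06 in the mutants and 9.71 and 10.6 in the controls. Pcdh19, the gene of an X-linked epilepsy in people, had 4 regions, with 2 absent in its body and 2 kept. Its start had folds of 7.10, 7.06 and 4.88 in the mutants and 8.67 and 8.49 in the controls.

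**Figure D5:**
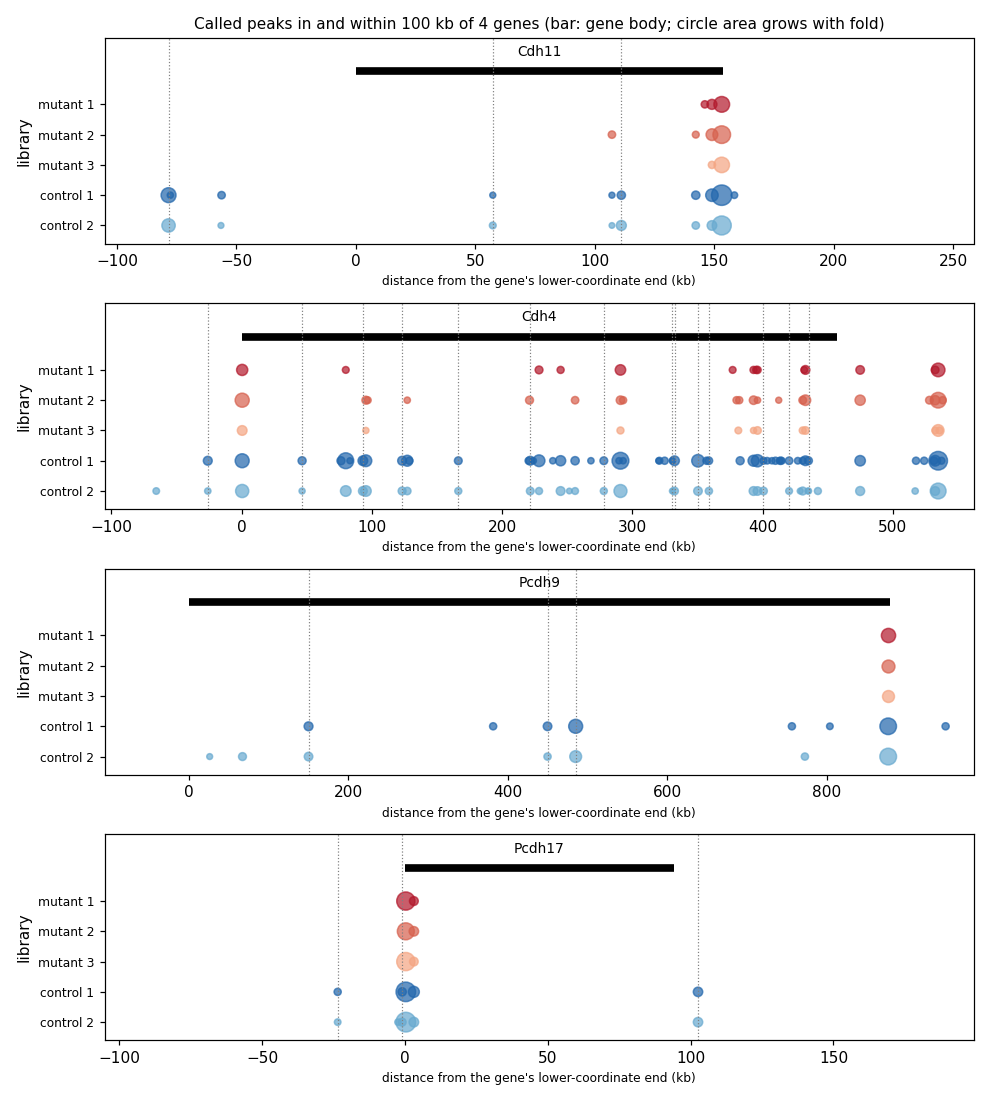
Called peaks of each library (rows, mutants above controls) in and within 100 kb of Cdh11, Cdh4, Pcdh9 and Pcdh17, by distance from the gene's lower-coordinate end (horizontal axis, kb). Circle area grows with the authors' fold, black bars are gene bodies and dotted lines mark the regions of both controls with no peak in any mutant, 14 of them around Cdh4.

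The other protocadherins had 22 regions of both controls, with 8 absent from all mutants (36.4%; 26.2% for like strength) and 13 kept. Pcdh12, an endothelial protocadherin, had 13 of these, with 4 absent and 8 kept, and no peak at its own ends. None of the 13 had Pcdh12 as the nearest gene. The strongest region of its window, at the neighbour Dele1, had 11.4, 11.7 and 11.1 in the mutants and 13.0 and 11.6 in the controls, which overlap. The strongest absent one, with Gnpda1 as the nearest gene, had 4.68 and 5.39 in the controls. Endothelial markers had peaks at 1 of 6 gene ends in each mutant and at 3 and 1 in the controls, and their part in this count was not tested. Pcdh15, the tip-link partner of Cdh23 in hair cells, had 7, with 4 absent and 3 kept. A body region at chr10:73887608-73888776 had folds of 5.72 and 7.14 in the controls and no peak in a mutant. Another, at chr10:73098967-73100374, was kept, with 4.63, 4.60 and 5.38 in the mutants and 7.28 and 5.79 in the controls. The annotated start of Pcdh15 lies inside the gene body (chr10:73096277-74649831), away from both gene ends. Only control 1 had a peak there, at a fold of 3.47. The kept region at chr10:73098967-73100374 lies much nearer the gene's lower-coordinate end. Pcdh20 had 2 regions of both controls and kept both. The Pcdh20 start had folds of 3.09, 3.29 and 4.37 in the mutants and 9.36 and 7.68 in the controls.

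Across the roles, the share absent was above that for like strength in the 3 protocadherin groups and in type I cadherins, and below it in type II and other cadherins. Pcdh1 and Pcdh12 put the same 9 regions of both controls, 3 of them absent, into both the delta-1 and the other protocadherins, so these are not separate. The counts also include regions with another gene nearest, of which 11 of 77 were absent over all roles (14.3%; 23.6% for like strength). Some gaps were small: type I had 19 absent against 18.2 for like strength, type II 20 against 20.9 and other cadherins 13 against 14.5. The base is 19 to 72 regions a role, and these differences were not tested.

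Genes that work with cadherins were counted the same way. For 14 catenins, nectins and other cytoplasmic or membrane partners, 39 of 128 regions of both controls were absent from all mutants (30.5%). Single genes differed widely. Around Ctnnb1, or beta-catenin, 5 of 8 were absent, and around Ctnna2, the neural alpha-catenin, 10 of 13. Other partners had few absent, with 1 of 17 around Jup, 2 of 14 around Arvcf and 0 of 14 around Nectin2. For 20 other genes of the cadherin superfamily, 52 of 191 were absent (27.2%), and 12 of their regions also belong to the 32 genes. Fat1 and Fat3, large atypical cadherins, had 7 of 10 and 7 of 8 absent, but Fat2 and Fat4 had 1 of 7 and 0 of 1. Celsr3, Cdhr4 and Cdhr5 had 0 of 10, 0 of 17 and 0 of 15. Cdh1, or E-cadherin, had 3 of 9 absent and Cdh5, the endothelial cadherin, 1 of 8. Both lists lay near the 30.4% of all regions.

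The window of 100 kb cut through some loci. The regions just inside it lay 99.2 kb from Cdh13, with a peak of 2.69 in control 2 alone, and 99.2 kb from Cdh23, with 5.20 and 3.50 in the controls alone. Just outside it, a region 100.1 kb from Cdh16 had 4.33 and 3.77 in the controls alone. A region 100.4 kb from Pcdh18 had folds of 3.86 and 4.54 in mutants 1 and 3, none in mutant 2, and 6.94 and 10.4 in the controls.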

How the data were processed

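The tools named in the submitters' processing notes are bcl2fastq 2.20.0, Bowtie2 2.3.5 and MACS2, with build mm10. Not given in the sources used here are the MACS2 version and options, duplicate removal and any shift of reads to the transposase cut, each of which can move peak borders and numbers. Each library has its own deposited peak list. Per the labels and the MACS2 layout, the deposited columns are start, end and summit offset (other values, in bp), a display score, a fold ratio over background, and −log10 p-value and −log10 q-value. The deposited score was not used. Read depth is unknown, so no counting interval was formed.

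Peaks of autosomes 1 to 19 and X were merged with at least 1 bp of overlap and assigned to genes of the RefSeq table of GRCm38.p6, which shares coordinates with mm10 and gives no strand. The libraries come from separately genotyped embryos and were numbered in sample order. Library values were compared with an exact two-sided permutation test (Python 3.11.15, numpy 2.4.6, pandas 2.3.3, scipy 1.17.1). The merging of peaks, the presence of peaks and the window were checked on simulated data, and the permutation test was not. Other shares have no test, since regions of 1 library are not replicates. All members are accounted for. Values were printed for start or gene-end regions, and, in members with at least 5 regions of both controls, for the strongest region and the strongest absent one. Some further regions (of Cdh2, Cdh4, Cdh6, Cdh11, Cdh18, Cdh19, Pcdh8, Pcdh9, Pcdh17, Pcdh18 and Cdh20) were chosen after their values were seen. Members and lists were chosen with earlier results of these data known. Alternatives were −log10 q-value minimums, a 50% overlap, lists shortened to equal length, other windows and leaving out each library.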

Additional observations from a re-analysis of the deposited data

How the results depend on the processing

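The mean difference in member regions with a peak stayed negative under each alternative, at −202 to −139.3 regions with 1 library left out and −19 regions in lists shortened to the 27194 strongest peaks each. The absent share of 33.5% (30.4% of all regions) was 42.1% where peaks had to cover 50% of a region (38.0% of all) and 19.3% in shortened lists (13.4%). It was 40.2% in gene bodies alone and 43.5% with a member as the nearest gene, beside the same 30.4%. Without gene-end regions, an alternative chosen after seeing the data, it was 43.75% (42%). With 1 library left out it was 33.9% to 53.2% (31.9% to 47.8%), highest without control 2, when a peak in 1 control sufficed. The share of regions of both controls with a peak per mutant, 53.1% (56.8% over all regions), was 41.8% with 50% cover (46.8%), 73.1% in shortened lists (79.8%), 43.1% with a member nearest (56.8%) and 40.4% without gene ends (42.3%). It was 35.8% to 57.1% with 1 library left out (40.8% to 61.2%). The count of 0 regions in all mutants and no control (42 over all regions) became 5 in shortened lists (677) and 0 to 1 with 1 library left out (114 to 440). The 53.4% for distal regions nearest to a member (42% of all distal regions) was 64.9% at a −log10 q-value of at least 10 (45.8%), 42.6% in shortened lists (25.8%) and 53.4% to 70.1% with 1 library left out (43.9% to 58.9%). The share of each list near the members differed by −0.102 to −0.027 percentage points, mutants minus controls, throughout. Causes were not tested. Depth is unknown, so weak regions are the least certain. No paired analysis was possible because the labels carry no replicate numbers.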
